A study of Mus musculus with 4 samples.

Results

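Core histones package DNA: a pair each of H2A, H2B, H3 and H4 forms the nucleosome. Their replication-dependent genes lie in clusters, are mostly free of introns and are transcribed chiefly in S phase, when new DNA has to be packed. Their mRNAs end in a conserved stem-loop in place of a poly(A) tail. SLBP binds that stem-loop for processing, export and translation, and the mRNAs are degraded quickly when replication stops. In the spleen they mark dividing cells, which in mice include red cell precursors, other blood cell precursors and activated lymphocytes.

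The genes were taken by name, as every row of the deposited table whose mouse symbol is that of a clustered core histone. The rule found 58 of 23763 genes: 16 of H2A, 18 of H2B, 12 of H3 and 12 of H4. The Hist1 cluster on chromosome 13 held 44 of them, Hist2 on chromosome 3 held 10, Hist3 on chromosome 11 held 3 and Hist4 on chromosome 6 held 1. The annotation holds 64 names under the rule, and Hist1h2aa, Hist1h2ba (both testis-type), Hist1h2aj, Hist1h2al, Hist1h2ao and Hist1h4m were not analysed here. The rule reads gene names and uses no expression value, but it was set with earlier results of these data known. All 58 genes reached the minimum mean for testing, and 1 of them, Hist3h2bb-ps, is annotated as a processed pseudogene.

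RNA came from the spleen of C57BL/6J mice at baseline, and 2 libraries were wild-type (WT) and 2 were from KLHL3 knock-in animals (KLHL3-KI). KLHL3 is the substrate adaptor of a cullin ubiquitin ligase. The sources used here give neither the inserted allele and its promoter nor the age or sex of the animals. The labels do not say that the 2 libraries of a group are from separate animals, so p-values measure the spread between these samples, which may be technical. Directional libraries were made after depletion of ribosomal RNA, a method that needs no poly(A) tail. Replicates 1 and 2 of WT held 8535483 and 8975415 reads, and those of KLHL3-KI 9586677 and 10933023. Values are the deposited normalised read counts, in which 1 read is worth 0.0974 to 0.112. The value of any 1 histone gene is uncertain because copies share sequence: 37 of 57 coding members are at least 98% identical in coding sequence to another member, and their 57 coding sequences translate to 21 distinct proteins.

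The stem-loop could be looked for in the gene models of 44 members that carry at least 40 bases after the stop codon (GENCODE M21). It was found in 40 of them, with 21 to 58 bases between stop codon and stem (median 31). The stems of the member with the highest mean in each type, and of 3 that differ from them, follow, 5′ to 3′, with the 16-base stem-loop in capitals and the neighbouring bases in lower case; the model of Hist1h2ap ends 3 bases after the stem.
Hist1h2ap: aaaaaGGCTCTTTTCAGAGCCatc
Hist1h2bg: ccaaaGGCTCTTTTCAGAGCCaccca
Hist2h3c2: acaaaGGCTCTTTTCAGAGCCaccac
Hist1h4n: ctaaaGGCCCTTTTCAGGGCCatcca
Hist1h3c: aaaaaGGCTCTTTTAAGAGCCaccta
Hist1h3g: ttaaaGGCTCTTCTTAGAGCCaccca
Hist1h4b: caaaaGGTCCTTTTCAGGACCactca
All 40 lay within the first 100 bases after the stop codon. Of the 20738 other protein-coding genes with at least 40 such bases in a model, 8 (0.0386%) held the stem-loop there, and each is a histone gene: H2afx, H2bfm, Hist1h1c, Hist1h1d, Hist1h1e, Hist1h1t, Hist1h2ao and Hist1h4m.
The form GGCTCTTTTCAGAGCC stood in 22 members, of H2A, H2B and H3. The stems of all 29 H2A, H2B and H3 members with a match began GGCTCTT. Those of H4 differed in the paired arms: 9 of 11 began GGCCCTT and 2, Hist1h4b and Hist1h4j, began GGTCCTT, each with the matching change in the other arm. The 4 members with a long enough model and no match were Hist1h2bc, Hist1h2bq, Hist1h2br and Hist2h2be, all of H2B.

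Promoter sequence before the annotated start (RefSeq, GRCm38.p6) was matched by gene identifier for 52 members, with 53 windows. It is printed for the member with the highest mean in each type and, for H3, also for Hist1h3c, the highest in WT, as 120 bases 5′ to 3′ on the strand of the gene. Capitals mark matches, on either strand, to the CCAAT box, the TATA box (TATAAA), the octamer (ATTTGCAT) and GGTCCG, which is part of an element known from H4 promoters.
Hist1h2ap, chr13:21833476-21833595, minus strand: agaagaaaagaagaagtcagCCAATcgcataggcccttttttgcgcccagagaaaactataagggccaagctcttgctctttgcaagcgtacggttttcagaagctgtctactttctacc
Hist1h2bg, chr13:23571280-23571399, plus strand: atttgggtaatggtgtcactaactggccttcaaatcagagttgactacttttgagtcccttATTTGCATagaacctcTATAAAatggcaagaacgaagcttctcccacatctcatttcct
Hist2h3c2, chr3:96239128-96239247, minus strand: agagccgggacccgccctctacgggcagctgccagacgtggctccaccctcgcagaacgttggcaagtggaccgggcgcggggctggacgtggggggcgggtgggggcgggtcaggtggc
Hist1h3c, chr13:23745522-23745641, minus strand: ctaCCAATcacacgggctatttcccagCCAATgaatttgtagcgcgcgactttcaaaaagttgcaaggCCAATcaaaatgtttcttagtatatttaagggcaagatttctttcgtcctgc
Hist1h4n, chr13:21832198-21832317, minus strand: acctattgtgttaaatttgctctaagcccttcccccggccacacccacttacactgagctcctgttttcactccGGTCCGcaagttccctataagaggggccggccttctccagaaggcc
The 120 bases of Hist2h3c2 hold no match to any of the 4 motifs, while those of Hist1h3c hold 3 of CCAAT. Over the whole 300-base window, 250 before and 50 after the start, CCAAT stood in 84.9% of the member windows against 37.4% of all 32851 promoter windows. It was in all 16 windows of H2A, all 16 of H2B and all 10 of H3, and in 3 of 11 of H4; in Hist2h3c1 and Hist2h3c2 no match lay wholly before the start. TATAAA stood in 52.8% against 13.6% of all windows. ATTTGCAT stood in 22.6% against 1.74%, in 6 windows each of H2A and H2B and in 0 of H3 and H4. GGTCCG stood in 10 of 11 H4 windows and 22.6% of the member windows, against 8.25% of all. Each motif was counted on its own, so that matches of different motifs may share bases, and a match is a description of the sequence only. Windows also overlap in 8 pairs of an H2A and an H2B gene that start close together on opposite strands. Both strands were searched, so a match in the shared bases counts for both genes. The octamer printed for Hist1h2bg, for example, also lies in the window of Hist1h2ae. The H2A and H2B counts are thus not independent.

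Core histone transcripts were about 4-fold higher in KLHL3-KI spleen, and the types moved together. The summed value of the 58 genes was 5293 and 4811 in WT against 19906 and 22730 in KLHL3-KI. The means were 5052 ± 341 and 21318 ± 1997 (SD, n = 2), a ratio of 4.22. The genes took 0.554% and 0.516% of all normalised reads in WT against 1.89% and 2.13% in KLHL3-KI. The 2 groups did not overlap for the sum of any type. In bulk tissue more cells of a kind and more RNA per cell cannot be told apart.

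Of the 58 members, 57 rose by limma (adjusted p under 0.05) and none fell, where 15.2% of the 16970 tested genes rose and 7.56% fell. Both KLHL3-KI values lay above both WT values for all 58, against 32.8% of tested genes. For Hist1h2br this rests on 3 reads in KLHL3-KI replicate 1 against 0 in each WT library. A called rise with a log2 fold change of at least 1.5 was seen in 3.23% of tested genes, and 55 of the 58 members had one. The median log2 fold change of the members was 2.12, and that of all tested genes -0.01. It was 1.95 with equal total reads per library, a scaling that moved the median of all genes to -0.16. In 39 of the 58 members the log2 fold change lay within 0.25 of that median; the other 19 lay outside, and the whole range was 0.75 to 3.04. Log2 fold changes here are on the log2(value + 1) scale, KLHL3-KI minus WT, given with the standard error (SE).

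**Figure D1:**
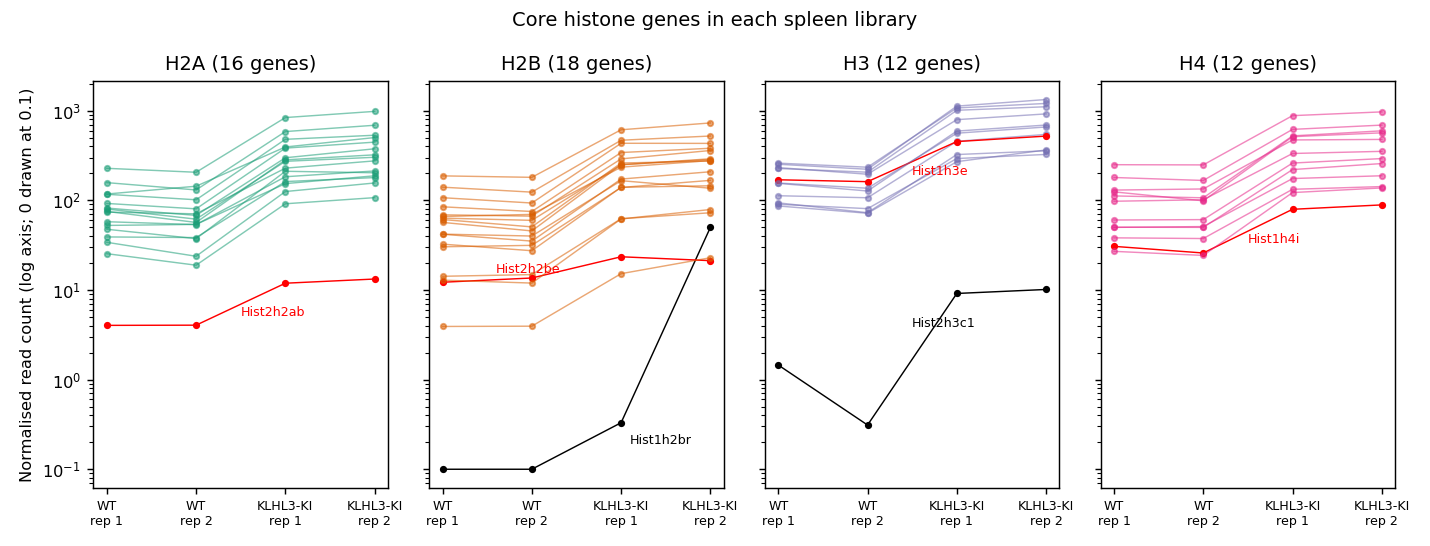
Normalised read count (log axis) of each core histone gene in the 4 libraries, 1 panel per type, with a line joining the 4 values of 1 gene. Every gene is higher in both KLHL3-KI libraries than in both WT libraries, and Hist1h2br (black, 0 in WT, drawn at 0.1) stands apart with 0.33 and 49.9 in the KLHL3-KI libraries.

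**Figure D2:**
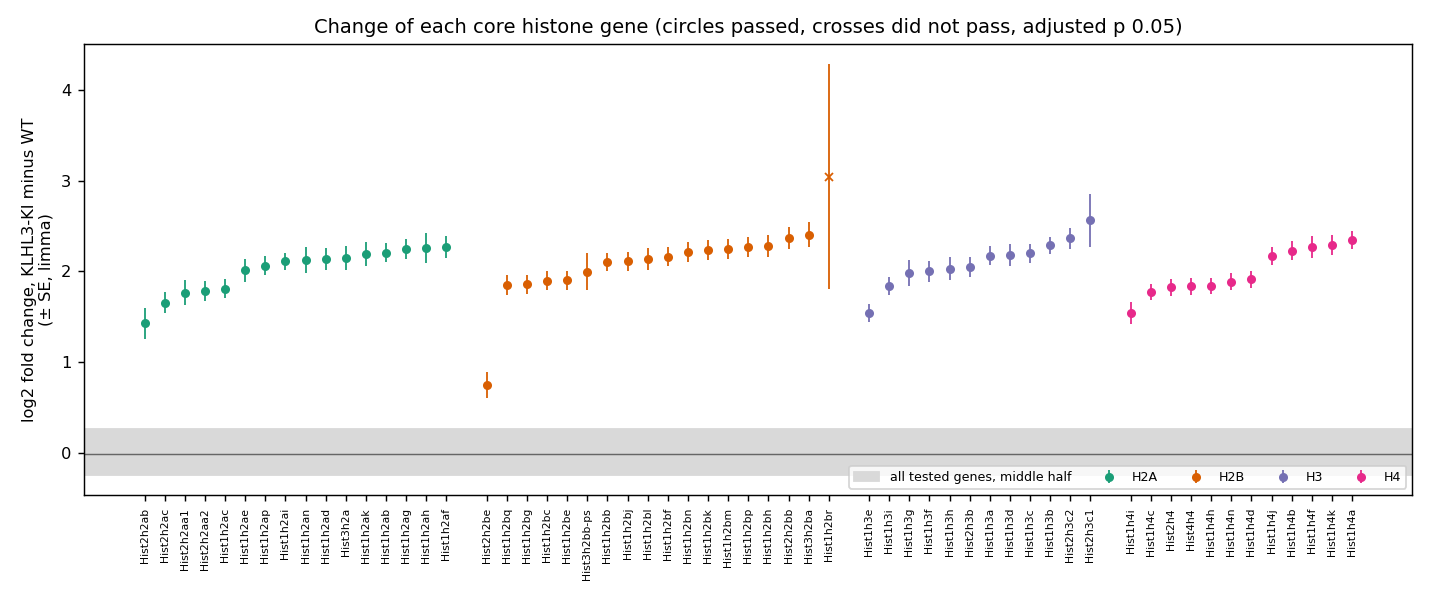
Log2 fold change (KLHL3-KI minus WT) of each member by type, with bars of 1 SE from limma. The grey band is the interquartile range of all tested genes and the line their median (-0.01). Most members lie near 2, Hist2h2be is lowest at 0.75, and Hist1h2br (cross) has the widest bar and did not pass.

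All 16 genes of H2A, which with H2B forms the outer dimers of the nucleosome, rose, with a median log2 fold change of 2.12. Hist1h2ap (ENSMUSG00000094777) was the most abundant of them, both in reads and per kilobase of coding sequence. Its normalised read count was 228 and 206 in WT against 838 and 982 in KLHL3-KI, that is 2.06 on the log2 scale (SE 0.11, limma adjusted p = 2.46e-06). The groups were far apart relative to the gap within each. The largest log2 fold change of the type was that of Hist1h2af, with 47.5 and 37.4 in WT against 211 and 203 in KLHL3-KI (2.27, SE 0.12). The smallest was that of Hist2h2ab, a low gene at 4.03 and 4.05 in WT against 11.9 and 13.2 in KLHL3-KI (1.43, SE 0.17, limma adjusted p = 0.000295). Low values are held down on this scale by the added 1, and the ratio of its means was 3.11.

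The other H2A genes outside the Hist1 cluster lie in Hist2 and Hist3. Hist2h2aa1 and Hist2h2aa2 have identical coding sequences, and their values were 118 and 144 against 394 and 501, and 73.8 and 70.7 against 229 and 275. Their log2 fold changes were 1.77 and 1.78 (SE 0.14 and 0.11). Hist2h2ac, at 52.5 and 53.9 in WT against 154 and 188 in KLHL3-KI, had 1.66 (SE 0.11). Hist3h2a had 2.15 (SE 0.13), from 82.0 and 67.9 to 298 and 376. The 4 Hist2 genes of H2A stood at the low end of the type, at 1.43 to 1.78, and their difference from the others was not tested. Summed over the 8 Hist1 genes that encode 1 identical H2A protein, the value went from 743 ± 74.8 to 3221 ± 322 (SD, n = 2), a ratio of 4.33.

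Of 18 H2B genes 17 rose, with a median log2 fold change of 2.15. Hist1h2bg (ENSMUSG00000058385) was the most abundant, at 187 and 180 in WT against 612 and 730 in KLHL3-KI (1.86, SE 0.11, limma adjusted p = 2.88e-06). Hist2h2bb rose from 56.7 and 45.6 to 250.2 and 285 (2.37, SE 0.12). Hist3h2ba, a low gene of the Hist3 cluster, rose from 12.9 and 11.9 to 62.0 and 79.0 (2.41, SE 0.14). The pseudogene Hist3h2bb-ps was at 3.92 and 3.94 in WT against 15.2 and 22.9 in KLHL3-KI (2.00, SE 0.20). Like the others, these genes did not overlap between the groups.

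Hist2h2be (ENSMUSG00000068854) had the smallest rise of all 58 members. Its value was 12.2 and 13.6 in WT against 23.5 and 21.2 in KLHL3-KI, that is 0.75 on the log2 scale (SE 0.14, limma adjusted p = 0.00418, range over the alternatives 0.00125 to 0.0470). Leaving out 1 library at a time gave 0.68 to 0.82, below the 1.43 of the next lowest member. As a share of all H2B reads it went from 1.19% and 1.44% to 0.599% and 0.477%. Its groups did not overlap, but an exact test of 2 against 2 libraries cannot go below p = 0.33. Of the 4 H2B genes without a stem-loop match its coding sequence is the least like another, at 88.4% identity to its closest member.

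Hist1h2br (ENSMUSG00000069303) was the single member that did not pass (limma adjusted p = 0.112). It had 0 and 0 reads in WT against 3 and 512 in KLHL3-KI, so its signal came from KLHL3-KI replicate 2 alone apart from 3 reads. A count of 0 allows up to 3 reads, a value of 0.336 and 0.311 for WT replicates 1 and 2, counting error only. Its coding sequence is identical to that of Hist1h2bq (ENSMUSG00000069307), which had 42.0 and 39.96 in WT against 166 and 136 in KLHL3-KI. The same library in which Hist1h2br had its reads was the one in which Hist1h2bq was lower than in KLHL3-KI replicate 1. KLHL3-KI replicate 2 was above replicate 1 in 54 of 58 members, and Hist1h2bq was among the 4 others. Summed, the copies had 42.0 and 39.96 in WT against 166 and 186 in KLHL3-KI, that is 2.08 on the log2 scale (SE 0.10, limma adjusted p = 2.04e-06), a sum added after the values were seen. The fitted 3.04 of Hist1h2br alone is no bound. With the WT libraries set to 3 reads each it is 2.64, and the median over all members is then still 2.12 and that over H2B 2.15. How reads were shared between the copies was not tested.

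**Figure D3:**
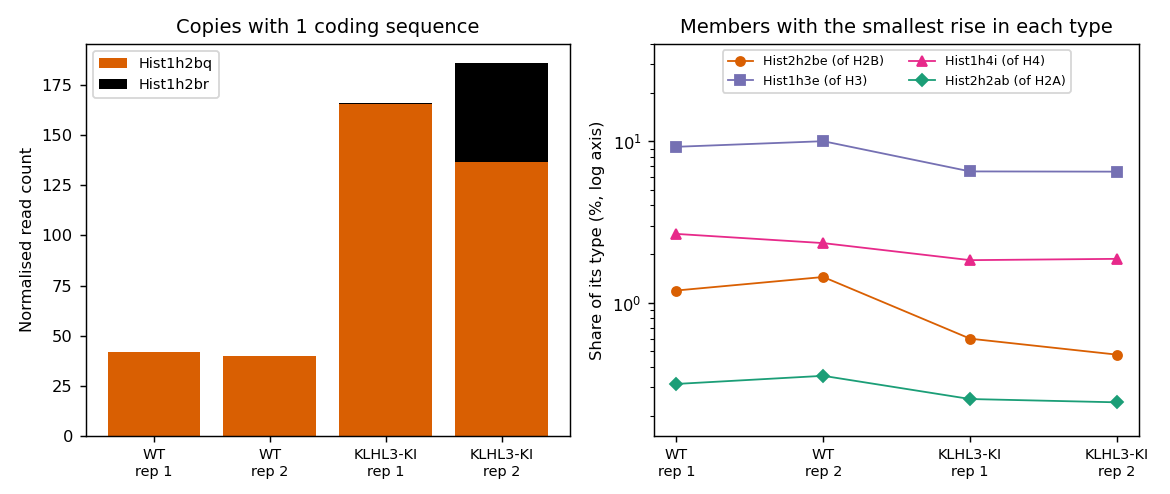
Left, normalised read count of Hist1h2bq and Hist1h2br stacked, by library: the total is 166 and 186 in KLHL3-KI, and Hist1h2br appears as 49.9 in replicate 2. Right, the share (%, log axis) of the member with the smallest log2 fold change in its own type, by library, with a line joining the 4 values of 1 gene. All 4 shares are lower in both KLHL3-KI libraries, which largely follows from choosing the members with the smallest rise.

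All 12 genes of H3, which with H4 forms the core tetramer, rose, with a median log2 fold change of 2.11. Hist2h3c2 (ENSMUSG00000081058) had the highest mean of them, at 253 and 222 in WT against 1124 and 1332 in KLHL3-KI (2.36, SE 0.11, limma adjusted p = 2.17e-06). Its share of all core histone reads grew by 1.06 percentage points, the largest gain of any member. Hist1h3c, at 260 and 234 in WT against 1073 and 1204 in KLHL3-KI, was the highest H3 gene of the WT libraries, also per kilobase of coding sequence (2.20, SE 0.10). Hist2h3b, at 156 and 136 in WT against 561 and 658 in KLHL3-KI, had 2.05 (SE 0.11). The largest log2 fold change of the type was 2.57 (SE 0.29), in Hist2h3c1. Low values are held down here by the added 1: the ratio of its means was 10.9, and edgeR and DESeq2 gave log2 fold changes of 3.45 and 3.46. It rests on few reads, 13 and 3 in WT against 83 and 104 in KLHL3-KI, and its coding sequence is identical to that of Hist2h3c2.

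Hist1h3e had the smallest log2 fold change of H3, 1.55 (SE 0.10). It was at 169 and 162 in WT against 452 and 521 in KLHL3-KI, and its share of H3 reads went from 9.23% and 10.002% to 6.50% and 6.48%. That is the largest loss of share of any member, -0.998 percentage points of all core histone reads. The 12 genes encode 2 proteins. The 8 genes of the first, among them Hist1h3b and Hist2h3c2, had a summed ratio of 4.41. The 4 of the other (Hist1h3a, Hist1h3g, Hist1h3h and Hist1h3i) had 4.10, with values of 383 and 332 in WT against 1342 and 1591 in KLHL3-KI.

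All 12 genes of H4 rose, with a median log2 fold change of 1.90. They encode 1 protein, and their summed value went from 1127 ± 31.5 to 4544 ± 303 (SD, n = 2), a ratio of 4.03. Hist1h4n (ENSMUSG00000069305) was the most abundant, at 250 and 248 in WT against 880 and 970 in KLHL3-KI (1.89, SE 0.09, limma adjusted p = 2.17e-06). Hist1h4a had the largest log2 fold change, 2.34 (SE 0.10), at 112 and 107 in WT against 523 and 596 in KLHL3-KI. Hist1h4i had the smallest, 1.54 (SE 0.12), at 30.7 and 25.8 in WT against 79.4 and 88.9 in KLHL3-KI. The lone gene of the Hist4 cluster, Hist4h4, was at 38.1 and 37.5 in WT against 133 and 142 in KLHL3-KI (1.84, SE 0.10). Hist2h4 was at 49.9 and 51.0 against 175 and 188 (1.83, SE 0.09).

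The make-up of the core histone pool differed little between the groups while its size differed 4.22-fold. H2A held 24.1% ± 0.259 of core histone reads in WT against 23.9% ± 0.367 in KLHL3-KI (SD, n = 2). H2B held 19.5% ± 0.162 and 19.6% ± 0.0679, and H3 34.1% ± 0.789 and 35.2% ± 0.277. H4 held 22.3% ± 0.885 and 21.3% ± 0.577. Values of the 2 groups overlapped for H2A, H2B and H4, while for H3 they were 34.7% and 33.6% in WT against 34.96% and 35.3% in KLHL3-KI. The ratios of the summed values were 4.19 for H2A, 4.26 for H2B, 4.35 for H3 and 4.03 for H4. By cluster, Hist1 held 82.4% of the reads in both groups, and Hist2 held 15.04% in WT and 14.998% in KLHL3-KI. The 10 highest members in WT held 40.6% of the WT pool and 40.1% of the KLHL3-KI pool, and 8 of them were among the 10 highest in KLHL3-KI. Per kilobase of coding sequence the summed level of H3 was the highest of the types in each library and that of H2B the lowest, at 4499 and 2701 in WT replicate 1.

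**Figure D4:**
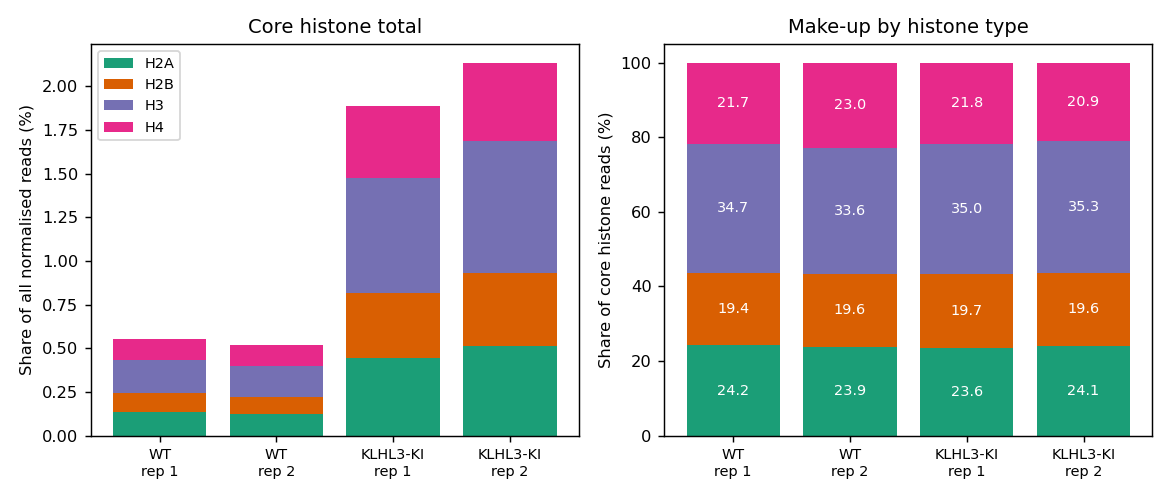
Left, share (%) of all normalised reads in core histone genes by library, stacked by type; the total is 0.554% and 0.516% in WT against 1.89% and 2.13% in KLHL3-KI. Right, share (%) of each type within the core histone reads of the library, between 19.4% and 35.3% with little change between groups.

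The members were also set beside their neighbours, their tails and their WT level. In 8 pairs an H2A and an H2B gene start within 164 to 268 bases of each other on opposite strands, and in 7 of them the log2 fold changes differed by at most 0.25. The exception was Hist1h2ap with Hist1h2br. Members with a stem-loop match and at most 100 further bases in the gene model had a median log2 fold change of 2.16 (21 genes, 1.66 to 2.29). Those with a match and over 100 further bases had 2.00 (19 genes, 1.54 to 2.57). Of the 4 without a match, Hist1h2bc had 1.90 and Hist1h2bq 1.85, within the range of the others, and Hist2h2be had 0.75. Across 58 genes, which share the same 4 libraries and are not independent, Pearson's r between the WT level and the log2 fold change was -0.17. The WT level is also part of the log2 fold change, so this r does not test a relation between them. The log2 values of the 58 genes correlated at 0.994 between the WT libraries and at 0.927 between the KLHL3-KI libraries, where Hist1h2br differs.

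Of 21 genes for histone gene transcription and 3′ end processing, 9 rose and 0 fell by limma, with a median log2 fold change of 0.29, where 15.2% of all tested genes rose and 7.56% fell. At an unadjusted p under 0.05 it was 13 and 0, where 20.9% of all tested genes were higher and 14.5% lower. With edgeR it was 9 and 0 (14.9% and 7.98% of all tested genes), and with DESeq2 8 and 0 (13.2% and 5.17% of the genes with an adjusted p). Slbp (ENSMUSG00000004642), which encodes the stem-loop binding protein, was at 71.6 and 55.6 in WT against 146 and 165 in KLHL3-KI (1.29, SE 0.13, limma adjusted p = 9.21e-05). Npat, the coactivator of histone gene transcription, rose by 0.60 (SE 0.11), and Casp8ap2, another protein of the histone locus body, by 0.46 (SE 0.10). The cap-binding gene Ncbp1 rose by 0.65 (SE 0.12) and the Sm protein gene Snrpf by 0.62 (SE 0.12). Lsm10 and Lsm11, of the U7 particle that cuts histone pre-mRNA, had -0.17 and -0.10 and did not pass, nor did the H4 promoter factor Hinfp at 0.16. Without WT replicate 1, 5 genes of the list rose, where 10.1% of all tested genes did, and without WT replicate 2 it was 2, where 8.17% did. Slbp kept its call in each alternative run, while Npat and Ncbp1 lost it without WT replicate 2, Snrpf without WT replicate 1, and Casp8ap2 without WT replicate 2 or a variance trend.

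Of 10 histone mRNA decay genes 3 rose and 2 fell, with a median of 0.17, where 15.2% of all tested genes rose and 7.56% fell. Counts this small do not set the list apart from those shares. The uridylyltransferase gene Tut7 rose by 0.63 (SE 0.09, limma adjusted p = 0.000838), Eri1, the exonuclease that acts on the stem-loop, by 0.53 (SE 0.10, limma adjusted p = 0.00579), and Lsm4 by 0.54 (SE 0.12). Tut4 fell by 0.49 (SE 0.09) and Smg1 fell by 0.31 (SE 0.09). Upf1 was at 0.32 (SE 0.13) and did not pass (limma adjusted p = 0.115). Leaving out either WT library left 1 gene of the list that rose. The genes that fell were 1 without WT replicate 1, 0 without WT replicate 2 and 1 without KLHL3-KI replicate 2. The calls of Eri1 and Lsm4 were lost when WT replicate 1 or 2 was left out.

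Of 21 histone chaperone and import genes 16 rose and 0 fell by limma, with a median of 0.59, against the same shares of all tested genes as for the processing list; at an unadjusted p under 0.05 it was 17 and 0, with edgeR 16 and 0 and with DESeq2 15 and 0. The largest rises were in Asf1b, a chaperone of new H3 and H4, from 14.0 and 14.6 to 52.6 and 61.5 (1.92, SE 0.12), in Chaf1a (1.78, SE 0.17) and in Mcm2 (1.64, SE 0.12), a helicase subunit that also binds histones. Chaf1b, with Chaf1a part of the replication-coupled assembly factor CAF-1, rose by 1.54 (SE 0.16), and Nasp, which holds soluble histones, by 1.09 (SE 0.12). Hira, which places H3.3 outside S phase, had 0.32 (SE 0.12) and did not pass (limma adjusted p = 0.0902). Without WT replicate 2, 10 of the list rose, where 8.17% of all tested genes did.

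Linker histone genes of the Hist1 cluster rose as well, as did most replacement variants. Of 6 tested linker histone genes 5 rose (median 1.81), where 15.2% of all tested genes rose. Hist1h1a had 2.36 (SE 0.13), Hist1h1b 2.26 (SE 0.11) and Hist1h1d 1.90 (SE 0.11). H1f0, which is made outside S phase, was at 20.03 and 16.9 in WT against 16.9 and 16.7 in KLHL3-KI and did not pass. H1fx was under the minimum level. Of 9 replacement variants, 7 rose, with a median of 0.48. H2afx, the DNA damage variant whose model holds a stem-loop, had 2.24 (SE 0.12), the centromeric H3 gene Cenpa 1.60 (SE 0.10) and H2afz 1.00 (SE 0.12). The H3.3 genes H3f3a and H3f3b had 0.57 and 0.47 (SE 0.10 and 0.09). Without WT replicate 2, 4 of the 9 rose, where 8.17% of all tested genes did. H2afy, at -0.23 and not called, fell with equal totals, after quantile normalization and with abundant genes removed.

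**Figure D5:**
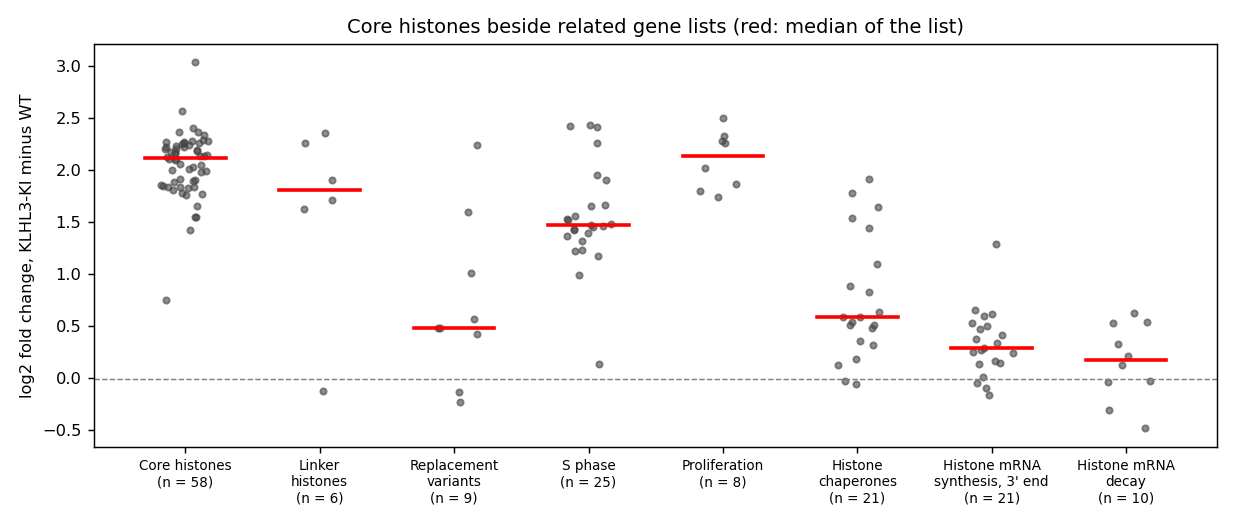
Log2 fold change (KLHL3-KI minus WT) of each tested gene in the core histone set and 7 related lists, with the median of each list as a red bar and that of all tested genes (-0.01) as a dashed line. The median is 2.12 for core histones, 1.81 for linker histones, 1.48 for S phase genes, 2.14 for proliferation genes, and 0.59 or less in the other 4 lists.

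Replication and division genes rose with the histones. Of 25 S phase genes 24 rose, where 15.2% of all tested genes did, with a median of 1.48; the exception was Pold1 at 0.14, chosen after its value was seen. The largest rises were in Ccna2 (2.44, SE 0.11), Rrm2 (2.42, SE 0.14) and Cdc6 (2.42, SE 0.17), and the replication clamp Pcna had 1.47 (SE 0.12). All 8 proliferation genes rose (median 2.14), led by Mki67, Cenpf and Cdk1 at 2.51, 2.33 and 2.28. The core histone sum divided by the summed value of the S phase list was 4.55 and 4.61 in WT against 6.50 and 6.11 in KLHL3-KI. Divided by the summed proliferation list it was 7.004 and 7.30 in WT against 6.04 and 5.70 in KLHL3-KI. The groups do not overlap in either ratio, and the directions are opposite; with 2 against 2 libraries no exact p below 0.33 can be had.

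Markers of other cell types also differed between the groups; the counts stand beside 15.2% of all tested genes that rose and 7.56% that fell, and a median log2 fold change of -0.01. All 10 erythroid precursor markers rose (median 2.58), led by Klf1, Hemgn and Rhd, and their summed value was 1623 and 1286 in WT against 6021 and 6773 in KLHL3-KI. All 8 neutrophil precursor markers rose (median 3.93), led by Ngp, Ltf and Camp, with a summed value of 78.2 and 29.0 against 789 and 1100. With a robust variance model 5 of the 8 passed. All 5 megakaryocyte markers rose (median 1.27; 128 and 120 against 296 and 373). All 8 T cell markers fell (median -0.76; 511 and 467 against 298 and 270), and 7 of 8 B cell markers fell (median -0.67; 2986 and 3081 against 2297 and 1729). Without WT replicate 1, 5 T cell and 4 B cell markers fell, and without WT replicate 2, 2 B cell markers, where 2.78% and 1.57% of all tested genes fell. Of 6 germinal centre markers 3 fell, where 7.56% of all tested genes did (median -0.68; 145 and 146 against 114 and 77.5). This was 1 with WT replicate 1 or 2 left out and 5 without KLHL3-KI replicate 1, where 9.59% of all tested genes fell. Of 6 plasma cell markers 0 rose and 0 fell by limma (median 0.08; 1819 and 1918 against 1982 and 2487), 0 and 0 with edgeR or DESeq2, and 1 and 1 at an unadjusted limma p under 0.05, where 20.9% of all tested genes were higher and 14.5% lower. The 8 spleen markers were all detected in each library, and 5 of them fell, where 7.56% of all tested genes did (3 without KLHL3-KI replicate 2, where 4.63% of all tested genes did, and 2 without WT replicate 2, where 1.57% did); Spic and Tlx1 did not pass. The part of these cell types in the histone values was not tested.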

How the data were processed

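Per the submitters' processing notes, Trimmomatic 0.38, Bowtie2, RSEM 1.3.0 and edgeR were used with build GRCm39; the sources used here do not give their roles, the annotation, filters or use of strand. The deposited values, called normalized counts by the authors, are a normalised signal per gene. Every value was a whole multiple of the smallest non-zero value of its library (100% within 0.001), which was taken as 1 read. Whether the whole counts so recovered are observed reads or rounded estimates is not known, and they are called reads here. On them edgeR's quasi-likelihood test called 2533 genes higher and 1355 lower. Names came from GENCODE M21 (GRCm38) and were found for 23605 identifiers (99.3%). Members and lists were chosen with earlier results of these data known.

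Genes with a mean of at least 1 (16970) were compared as log2(value + 1) with limma 3.58.1 in R 4.3.3. The test was two-sided with a variance trend, Benjamini-Hochberg adjusted over all genes, with a threshold of 0.05. It was first run on simulated counts with the same spread setting for every gene, which does not show how it performs on these data. Alternatives were edgeR 4.0.16 and DESeq2 1.42.0 on recovered reads, other pseudocounts, filters, scalings and variance models, a replicate block, and each library left out. Depth and n = 2 limit the precision. Genes were named by a fixed rule: the highest mean and the largest and smallest log2 fold change of each histone type, members outside Hist1, and, per list, up to 3 genes of largest change plus known regulators. Further genes, such as Hist1h2bq, Hist1h3c, Lsm10, Hinfp, Tut4 and H3f3a, were chosen after their values were seen. Stem-loops were matches to a 16-base pattern of the histone stem-loop in the annotated bases after the stop codon. The pattern did not itself require the arms to pair, which they do in each stem found in a member. The protein table needed for the planned protein sequences was not used here.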

Additional observations from a re-analysis of the deposited data

How the results depend on the processing

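Over 17 alternatives the direction of each member held in 986 of 986 cases and the call in 982. The other 4 were Hist1h2br, which passed with edgeR, a pseudocount of 0.1, the replicate block and without KLHL3-KI replicate 1; without 1 library its fitted change lay between 0.41 and 5.67. Summed to 1 feature for each distinct protein, 21 of 21 rose, as did the pseudogene Hist3h2bb-ps, which has no protein and stood alone (22 features in all); this used GENCODE translations and was added after seeing the data, and the planned RefSeq version was not run. The median log2 fold change was 1.98 once mitochondrial, haemoglobin and immunoglobulin genes were removed, 1.95 with equal totals and 1.96 after quantile normalization, where the median of all genes moved to -0.14, -0.16 and -0.10. For H4 it was 1.76, 1.73 and 1.73, and 1.83 to 1.97 without 1 library; for H2B it was 1.99 with equal totals. With those genes removed, core histones took 0.574% in WT and 2.20% in KLHL3-KI, H2A 0.138% in WT, H2B 0.112% and 0.432%, and H4 0.128% and 0.469%.

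For the lists, no variance trend left 4 histone mRNA processing genes higher, 0 decay genes lower, 4 replacement variants higher, 2 spleen markers lower and 3 B cell markers lower. With DESeq2 3 spleen markers fell. No filter left 1 decay gene lower, a mean of at least 5 left 1 germinal centre marker lower, and the robust model left 5 neutrophil markers higher. With abundant genes removed, and also with equal totals, 5 germinal centre markers, 1 replacement variant and 1 plasma cell marker fell; after quantile normalization 1 replacement variant and 1 plasma cell marker fell. The cause was not tested.

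Counts without 1 library at a time were as follows, from lowest to highest. Higher were 2 to 11 histone mRNA processing genes, 1 to 4 decay genes, 10 to 17 chaperone genes, 4 to 7 replacement variants and 0 to 1 plasma cell markers. Lower were 0 to 2 decay genes, 2 to 6 spleen markers, 5 to 8 T cell markers, 2 to 8 B cell markers, 1 to 5 germinal centre markers and 0 to 1 plasma cell markers. Where a group is left with 1 library, it is assumed to vary like the other.

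The replicate numbers did not pair the samples (correlation of deviations -0.03). With the replicate block 58 members rose, with a median of 2.12, and no other call of a member changed; a replicate number says nothing here of a shared animal or day.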
